A study of Homo sapiens with 6 samples.

Results

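A set of 10 genes of the interleukin-6 cytokine family and its feedback inhibitors was followed in HCC1806/HM3 cells after MSLN knockdown. They were taken from the deposited expression table by gene symbol, and all 10 symbols asked for were found among its 17860 genes. They are the receptor chains IL6ST, IL6R, LIFR and OSMR, the secreted ligands LIF, CLCF1 and IL11, and the inhibitors SOCS1, SOCS3 and CISH. The rule itself used gene symbols only, although the genes were proposed with earlier results of these data known.

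HCC1806 is an established cell line from a squamous carcinoma of the breast that is used as a model of triple-negative disease, and HM3 is a derivative of it selected for metastasis to the liver. Bulk mRNA-seq compared 3 shNC libraries, from cells carrying a lentiviral control hairpin, with 3 shMSLN libraries, from cells carrying a lentiviral hairpin against MSLN, the gene of the surface glycoprotein mesothelin. Both groups were infected, drug-selected, and grown in the same medium with serum and with no cytokine named as added. Which of the study's hairpin sequences was used for these libraries was not given, and 1 cell line was used, so hairpin, selected pool and knockdown cannot be told apart. The labels number the replicates but do not say that they were separate cultures, and the p-values then measure the spread between these samples, which may be technical.

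Nearly all cytokines of this family signal through gp130, the product of IL6ST. IL6R and IL11RA bind interleukin-6 and interleukin-11 and bring them to gp130, whereas LIFR and OSMR are signalling chains that pair with gp130 for LIF, oncostatin M and their relatives. The assembled receptors activate JAK kinases, which phosphorylate STAT factors, STAT3 above all. SOCS proteins and CISH carry an SH2 domain that binds phosphotyrosine and a SOCS box that recruits a ubiquitin ligase. Some of them are induced by JAK-STAT signalling and restrain it. In squamous and basal epithelia the pathway is known for its part in wound repair and inflammation.

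MSLN itself stood at 231, 226 and 227 CPM (counts scaled to library size) in shNC and at 37.1, 36.2 and 35.4 CPM in shMSLN, a fall of 84.1% that matched the labels. The libraries held 17507837 to 18512135 estimated counts, and the 10 most abundant genes took 4.69% to 5.50% of them. All 10 epithelial and squamous markers were above 1 TPM, a level scaled to transcript length and library size, in every library, with summed levels of 4622 to 5059 TPM in shNC and 4186 to 4337 TPM in shMSLN. The summed levels were 13.2 to 13.7 and 14.1 to 14.8 TPM for 6 fibroblast markers, 36.8 to 41.5 and 36.2 to 39.6 TPM for 6 leukocyte markers, and 2.45 to 2.91 and 2.58 to 3.01 TPM for 4 endothelial markers, in shNC and shMSLN in that order. Of these, 1, 3 and 1 markers were above 1 TPM in every library, and their part in the results was not tested. Most of the fibroblast sum was COL1A1, with means of 11.45 TPM in shNC and 11.81 TPM in shMSLN. Most of the leukocyte sum was CD68, with means of 31.6 TPM in shNC and 29.6 TPM in shMSLN.

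Of the 10 genes, 5 were lower and 1 was higher in shMSLN at an adjusted p below 0.05 in edgeR's quasi-likelihood test, against 18.0% of 14552 tested genes called lower and 16.6% called higher (34.6% in all). The signalling chains IL6ST, OSMR and LIFR and the ligands LIF and CLCF1 fell, IL6R rose, and IL11, SOCS1, SOCS3 and CISH did not pass. The same 5 genes were lower and the same 1 was higher with no overlap between the groups, as were 23.5% and 22.7% of all tested genes (46.2% in all). The median log2 fold change was -0.32 over the 10 genes and 0.0019 over all tested genes. In bulk RNA, fewer expressing cells and less RNA per cell cannot be told apart.

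**Figure D1:**
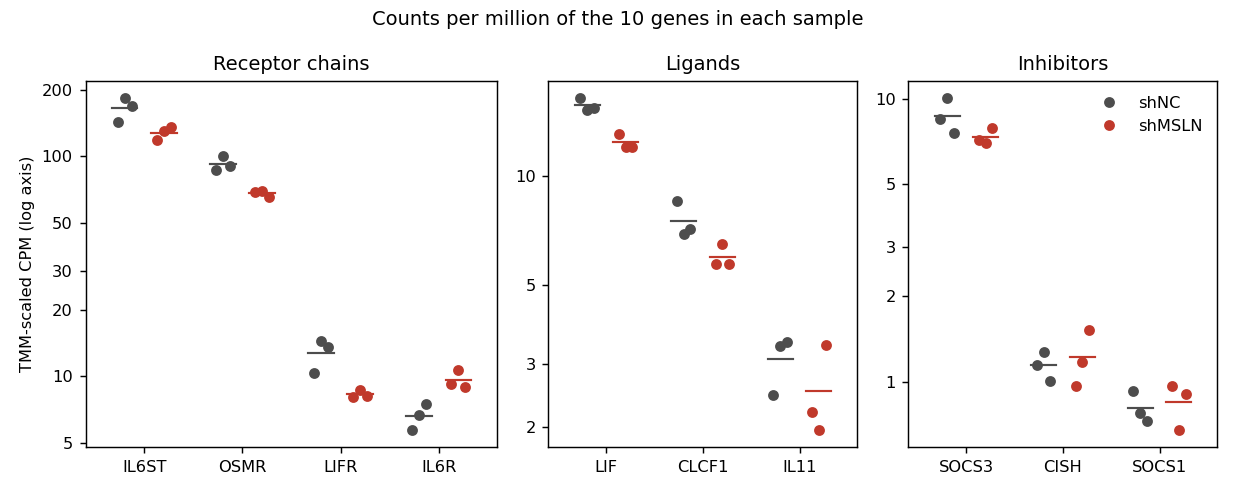
CPM scaled by TMM, a factor that evens out library composition, on a log axis for each of the 10 genes, in separate panels for receptors, ligands and inhibitors. Points are single libraries of shNC and shMSLN and bars are group means; the shMSLN points of IL6ST, OSMR, LIFR, LIF and CLCF1 lie below all shNC points, and those of IL6R lie above them.

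IL6ST, the chain that nearly every receptor of the family needs, stood at 143, 185 and 169 CPM in shNC and at 119, 130 and 136 CPM in shMSLN. All 3 shMSLN libraries were below the lowest shNC library, although the shNC libraries were spread more widely than the shMSLN ones. The mean fell by 22.5% from 166 ± 21.4 to 128 ± 8.38 CPM (SD over 3 libraries per group), for a log2 fold change of -0.37 (95% interval -0.53 to -0.21, edgeR adjusted p = 0.00138). The gene lies on the minus strand at chr5:55935095-55994993 (GRCh38).

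OSMR (plus strand, chr5:38845858-38945596) is the chain that pairs with gp130 to receive oncostatin M, and it stood at 87.1, 101 and 90.4 CPM in shNC and at 68.7, 69.4 and 65.5 CPM in shMSLN. The groups did not overlap, and the shMSLN libraries lay close together. The mean fell by 26.8% from 92.7 ± 7.09 to 67.9 ± 2.12 CPM (SD over 3 libraries per group), and the log2 fold change was -0.45 (95% interval -0.57 to -0.33, edgeR adjusted p = 1.85e-05). On the log2(TPM + 1) scale, which divides by transcript length, the log2 fold change was smaller, -0.26 (limma adjusted p = 0.0172).

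The length by which counts had been divided also differed between the groups for OSMR. This length can be recovered for each gene from the estimated count, the FPKM and the library size, and it depends on how the quantifier shared reads among isoforms. For OSMR it was 4.36, 4.41 and 4.49 kb in shNC and 4.01, 3.94 and 4.02 kb in shMSLN, a mean of 4.42 ± 0.0650 against 3.99 ± 0.0426 kb (SD over 3 libraries per group), or 9.81% shorter. A change at least this far with no overlap between the groups was found in 67 of 12083 genes (0.554%), and OSMR was picked out here with its values known. With no minimum set on the change, the groups did not overlap in 1771 of the 12083 genes (14.7%). Among the other members with FPKM of at least 1 in every library, the length of IL6R was 5.36% longer with overlapping groups, and those of IL6ST, LIF, CLCF1 and SOCS3 moved by 0.461% or less. The isoforms themselves were not measured. Exons of OSMR and RICTOR, on opposite strands, share 229 bases, and whether counting used strand was not given. RICTOR had a log2 fold change of -0.17 (edgeR adjusted p = 0.0143). IL6ST and LIFR share 797 and 629 exon bases with the opposite-strand genes AC008914.1 and LIFR-AS1. LIF shares 175 and 92 with AC004264.1 and LIF-AS1, also on the opposite strand, and CLCF1 shares 61 with AP003419.1 on its own strand. No values were given for these partners, and their part was not tested.

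LIFR (minus strand, chr5:38474963-38608354), which pairs with gp130 for LIF, cardiotrophin and CLCF1, was much less abundant. It stood at 10.3, 14.5 and 13.6 CPM in shNC and at 8.06, 8.69 and 8.19 CPM in shMSLN, from 189, 262 and 245 and from 150, 155 and 145 estimated counts. Here too the groups did not overlap, and shNC replicate 1 lay nearest to the shMSLN libraries. The mean fell by 35.2% from 12.8 ± 2.20 to 8.32 ± 0.333 CPM (SD over 3 libraries per group), the largest relative decrease among the 10 genes, with a log2 fold change of -0.63 (95% interval -0.88 to -0.37, edgeR adjusted p = 0.00101).

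IL6ST and LIFR are long transcripts, and shNC replicate 1 was the lowest and replicate 2 the highest shNC library for both. Over the longest 2910 of the tested genes, from 5.29 kb, replicate 1 lay 0.050 below and replicate 2 lay 0.042 above the shNC mean on the log2 scale, and the median log2 fold change was -0.028. With that trend on length removed, the log2 fold changes were -0.34 for IL6ST (edgeR adjusted p = 0.000321), -0.60 for LIFR (edgeR adjusted p = 0.000509) and -0.43 for OSMR (edgeR adjusted p = 6.36e-06).

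LIFR has several start sites in RefSeq, and its promoters are shown because 2 of the 3 windows hold the palindrome TTCNNNGAA that STAT dimers are known to bind. Each window runs from 250 bases before to 50 bases after a start site, on the minus strand of GRCh38.p14, and capitals mark the match, which begins 165 bases before the start in the first and 182 bases before it in the second. The palindrome reads the same on both strands, and 7.66% of 35116 promoters of this length hold it.
LIFR, chr5:38595356-38595655: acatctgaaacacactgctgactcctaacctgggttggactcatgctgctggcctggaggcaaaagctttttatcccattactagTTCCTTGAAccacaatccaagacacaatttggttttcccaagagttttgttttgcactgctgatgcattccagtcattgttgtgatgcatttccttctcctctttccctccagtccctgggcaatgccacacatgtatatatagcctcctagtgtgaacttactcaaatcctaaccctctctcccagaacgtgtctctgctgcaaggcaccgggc
LIFR, chr5:38557418-38557717: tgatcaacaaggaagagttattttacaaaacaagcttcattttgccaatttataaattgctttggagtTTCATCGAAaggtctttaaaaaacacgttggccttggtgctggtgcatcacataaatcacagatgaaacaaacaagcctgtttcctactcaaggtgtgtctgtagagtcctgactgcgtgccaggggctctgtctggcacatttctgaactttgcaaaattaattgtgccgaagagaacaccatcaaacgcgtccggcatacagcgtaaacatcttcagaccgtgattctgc
The matches describe the letters of the windows and not the binding of any factor, and which start site these cells used was not measured.

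IL6R (chr1:154405193-154469450), which binds interleukin-6 and presents it to gp130, went the other way. It stood at 5.69, 6.71 and 7.51 CPM in shNC and at 9.19, 10.7 and 8.92 CPM in shMSLN, from 104 to 135 and from 158 to 190 estimated counts. All 3 shMSLN libraries were above the highest shNC library. The mean rose by 44.5% from 6.64 ± 0.913 to 9.59 ± 0.933 CPM (SD over 3 libraries per group), for a log2 fold change of 0.53 (95% interval 0.27 to 0.79, edgeR adjusted p = 0.00367).

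The remaining chains of the family were examined as a list of 8 receptors, of which 7 could be tested. The calls were 3 lower (IL6ST, OSMR, LIFR) and 3 higher (IL6R, IL11RA, IL27RA), against 18.0% lower and 16.6% higher over all tested genes. The median log2 fold change of the 7 was -0.015. IL11RA, which binds interleukin-11, stood at 6.35, 8.09 and 6.85 CPM in shNC and at 12.6, 11.7 and 10.9 CPM in shMSLN, a log2 fold change of 0.73 (SE 0.110, edgeR adjusted p = 0.000141). IL27RA rose from 4.29 ± 0.357 to 5.60 ± 0.455 CPM (edgeR adjusted p = 0.0425), a call that was lost in DESeq2 (adjusted p = 0.138) and on leaving out any library other than shNC replicate 1. IL31RA had a log2 fold change of -0.015 (edgeR adjusted p = 0.957), and CNTFR had at most 2 estimated counts in any library.

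**Figure D2:**
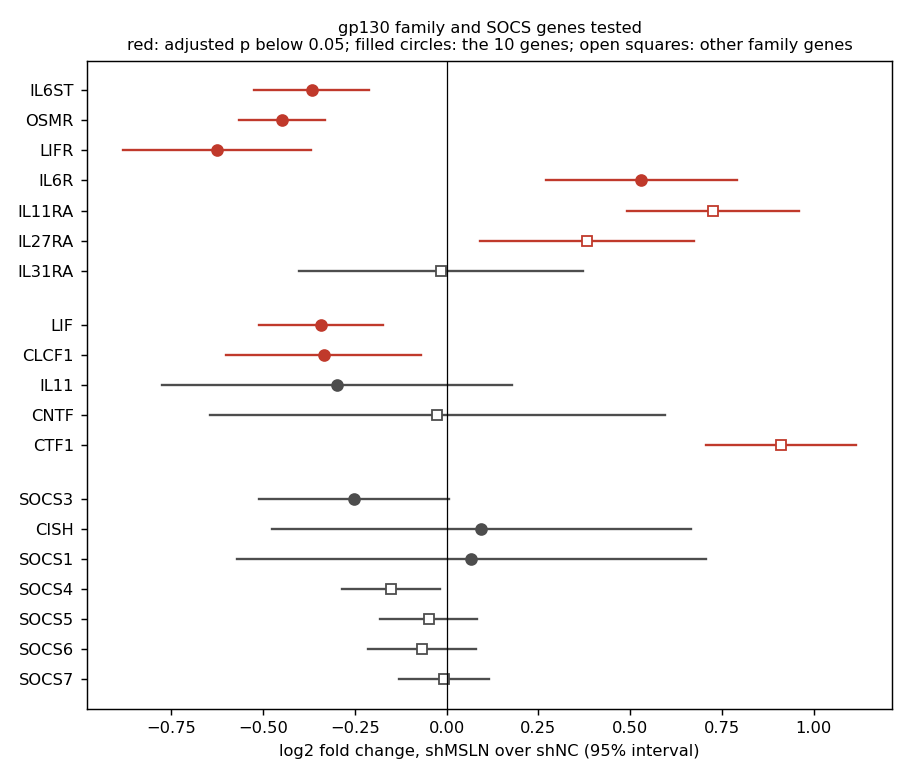
Log2 fold change of shMSLN over shNC from the edgeR fit for the tested ligands, receptors and SOCS genes of the family, with bars for the 95% interval. Red marks an adjusted p below 0.05, circles are the 10 genes and open squares other genes of the family; IL6ST, OSMR, LIFR, LIF and CLCF1 lie left of 0, and IL6R, IL11RA, IL27RA and CTF1 lie right of it.

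Of the ligands LIF, CLCF1 and IL11, LIF (chr22:30240447-30246851) had the tightest replicates. It stood at 16.6, 15.3 and 15.5 CPM in shNC and at 13.2, 12.1 and 12.1 CPM in shMSLN. Every shMSLN library was below every shNC library. The mean fell by 21.2% from 15.8 ± 0.696 to 12.4 ± 0.634 CPM (SD over 3 libraries per group), for a log2 fold change of -0.34 (95% interval -0.51 to -0.17, edgeR adjusted p = 0.00392).

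CLCF1 (chr11:67364168-67374177), a ligand that signals through LIFR and gp130, stood at 8.54, 6.93 and 7.12 CPM in shNC and at 5.70, 6.51 and 5.70 CPM in shMSLN. The groups did not overlap, but shMSLN replicate 2 and shNC replicate 2 lay close to each other. The mean fell by 20.7% from 7.53 ± 0.878 to 5.97 ± 0.465 CPM (SD over 3 libraries per group), and the log2 fold change of -0.34 (95% interval -0.60 to -0.07) passed with little margin (edgeR adjusted p = 0.0490). The call was lost in 11 of 20 alternatives, including DESeq2 (adjusted p = 0.141) and leaving out any library other than shNC replicate 2 (edgeR adjusted p 0.0348 to 0.177 over the 6 libraries).

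IL11 (chr19:55364389-55370463) stood at 2.46, 3.38 and 3.45 CPM in shNC and at 2.20, 1.96 and 3.39 CPM in shMSLN. The groups overlapped, since shMSLN replicate 3 lay among the shNC libraries. The log2 fold change of -0.30 had a 95% interval of -0.78 to 0.18 (edgeR adjusted p = 0.323), and no difference was detected at 34.8 to 61.9 estimated counts per library.

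The other ligands were mostly scarce. Of 10 genes in this list 7 were in the table and 5 could be tested, with a median log2 fold change of -0.30. Of these 5, 2 were called lower (LIF, CLCF1) and 1 higher, against 18.0% lower and 16.6% higher over all tested genes. The one that rose was CTF1, which encodes cardiotrophin-1, a ligand of LIFR and gp130. It stood at 8.59, 8.31 and 7.96 CPM in shNC and at 17.3, 14.4 and 15.0 CPM in shMSLN, a log2 fold change of 0.91 (SE 0.0955, edgeR adjusted p = 4.37e-06), larger than that of any of the 10 genes. CNTF had a log2 fold change of -0.026 (edgeR adjusted p = 0.954). IL6 had 1, 1.06 and 1.94 estimated counts in shNC and 0 and 0.93 in 2 shMSLN libraries, with the remaining shMSLN value marked as missing, and was not tested. OSM, the ligand of OSMR, was not analysed here.

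CISH is the inhibitor whose promoter is shown, because it holds 4 matches to TTCNNNGAA. Only 7 of the 35116 promoters (0.0199%) held 4 or more, and among the 11 windows found for 8 of the 10 genes, 3 windows of CISH and LIFR held any. No window of these genes held the form with 1 more spacer base, TTCNNNNGAA, which 6.44% of all promoters held. The windows do not cover the gene starts that GENCODE gives for SOCS3 (78360077) and LIFR (38608354), so those were not searched. The CISH window is on the minus strand of GRCh38.p14, with the matches in capitals beginning 241, 230, 129 and 112 bases before the start site.
CISH, chr3:50611725-50612024: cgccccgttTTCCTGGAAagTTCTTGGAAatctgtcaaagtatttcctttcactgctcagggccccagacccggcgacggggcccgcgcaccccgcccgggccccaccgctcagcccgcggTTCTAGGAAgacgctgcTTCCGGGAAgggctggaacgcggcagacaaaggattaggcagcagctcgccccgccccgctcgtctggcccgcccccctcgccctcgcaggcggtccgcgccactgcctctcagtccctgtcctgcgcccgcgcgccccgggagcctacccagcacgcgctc
The matches describe letters only, and which factor was bound was not measured.

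CISH (chr3:50606490-50611831) had 21, 23 and 18 estimated counts in shNC and 18, 21 and 27 in shMSLN. The groups overlapped, at 1.14 ± 0.137 and 1.22 ± 0.281 CPM (SD over 3 libraries per group). The edgeR interval ran from 0.719-fold to 1.59-fold (adjusted p = 0.815), so that a change within those bounds is not excluded. CISH shares 218 exon bases with MAPKAPK3 on the opposite strand, which had a log2 fold change of -0.070 (edgeR adjusted p = 0.408).

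SOCS1 (chr16:11254405-11256200), an inhibitor that acts on JAK kinases directly, had 17.1, 14 and 13 estimated counts in shNC and 18, 12 and 16 in shMSLN. The 2 groups covered much the same range, at 0.810 ± 0.108 and 0.848 ± 0.155 CPM (SD over 3 libraries per group). The edgeR interval ran from 0.672-fold to 1.63-fold (adjusted p = 0.886).

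SOCS3 (chr17:78356778-78360077), which binds gp130 and is the classical feedback inhibitor of interleukin-6 signalling, was the best measured of the 3 inhibitors. It stood at 8.48, 10.1 and 7.57 CPM in shNC and at 7.15, 6.95 and 7.85 CPM in shMSLN. The groups overlapped in that shMSLN replicate 3 exceeded shNC replicate 3. The log2 fold change was -0.25 (95% interval -0.51 to 0.0065, edgeR adjusted p = 0.123), from means of 8.71 ± 1.28 and 7.32 ± 0.471 CPM (SD over 3 libraries per group).

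Across the SOCS family of 8 genes, 7 were tested and none was called in edgeR, DESeq2 or limma-voom, with a median log2 fold change of -0.048. Over all tested genes, edgeR called 18.0% lower and 16.6% higher. At an unadjusted p below 0.05 the count was 1, SOCS4, which stood at 30.1, 32.1 and 34.1 CPM in shNC and at 28.3, 30.0 and 28.4 CPM in shMSLN (log2 fold change -0.15, edgeR adjusted p = 0.0721). Without shNC replicate 1, SOCS4 was the 1 gene of the family called lower (edgeR adjusted p = 0.0162). SOCS2 had 5 to 11 estimated counts and was not tested.

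An exact two-sided permutation test of the group means over the 6 samples gave p = 0.1, the smallest that 3 against 3 allows, for the 6 called genes. It gave 0.2 for SOCS3, 0.3 for IL11, 0.8 for CISH and 0.9 for SOCS1.

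Per unit of transcript length the 10 genes kept the same order in both groups. From high to low in mean TPM this order was OSMR, IL6ST, CLCF1, LIF, SOCS3, IL6R, IL11, LIFR, SOCS1 and CISH. OSMR and IL6ST stood at 45.2 ± 4.46 and 40.2 ± 5.87 TPM in shNC and at 37.5 ± 1.45 and 32.0 ± 2.25 TPM in shMSLN, well above CLCF1 at 9.71 ± 1.03 and 7.87 ± 0.638 TPM (SD over 3 libraries per group). LIFR, at 2.72 ± 0.542 and 1.77 ± 0.0700 TPM, had the lowest mean of the 4 receptor chains in both groups, with a range in shNC that overlapped that of IL6R. In shNC the ranges of OSMR and IL6ST, of LIF and SOCS3, of IL6R and IL11 and of IL11 and LIFR overlapped, so that these neighbours cannot be ordered. In shMSLN the overlapping neighbours were LIF and SOCS3, LIFR and SOCS1, and SOCS1 and CISH.

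**Figure D3:**
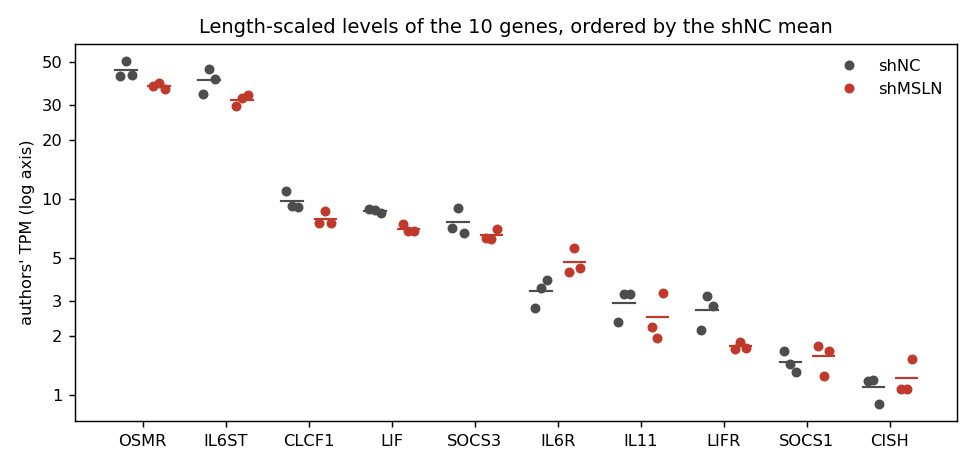
TPM as deposited, on a log axis, for the 10 genes in order of their mean in shNC. Points are single libraries of each group and bars are group means; OSMR and IL6ST lie at 29.5 TPM or more and SOCS1 and CISH at 1.78 TPM or less in every library.

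Downstream of the receptors, JAK1, the kinase gp130 depends on most, was not called, at 180, 197 and 185 CPM in shNC and 188, 182 and 191 CPM in shMSLN (log2 fold change -0.0062, 95% interval -0.10 to 0.08, edgeR adjusted p = 0.924). JAK2 rose from 8.81 ± 0.107 to 13.4 ± 1.70 CPM (log2 fold change 0.60, edgeR adjusted p = 0.000422). TYK2 fell from 78.1 ± 3.56 to 69.3 ± 0.923 CPM (log2 fold change -0.17, edgeR adjusted p = 0.00940). STAT3 stood at 124, 139 and 130 CPM in shNC and at 119, 125 and 124 CPM in shMSLN (log2 fold change -0.10, edgeR adjusted p = 0.115). Without shNC replicate 1 STAT3 passed as lower (edgeR adjusted p = 0.0117). Of all 11 JAK and STAT genes, 3 were called lower and 3 higher, against 18.0% lower and 16.6% higher over all tested genes. The median log2 fold change of the 11 was -0.089. The other called genes were STAT6 (-0.15, adjusted p = 0.0134), STAT5A (-0.22, adjusted p = 0.0215), STAT2 (0.19, adjusted p = 0.00330) and JAK3 (0.52, adjusted p = 0.0101), in edgeR. STAT5A lost its call without shNC replicate 2 or any 1 shMSLN library, STAT6 without shMSLN replicate 2 or 3, and JAK3 without shMSLN replicate 1. With shMSLN replicate 1 alone against shNC, where the spread comes from the shNC samples only, the log2 fold changes were 0.39 for JAK2, -0.18 for TYK2, -0.22 for STAT5A and -0.088 for STAT6, and none of these 4 was called.

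Of 8 other inhibitors of the pathway, 2 were called lower and none higher, against 18.0% lower and 16.6% higher over all tested genes. The median log2 fold change of the 8 was -0.068. The 2 called lower were SH2B3, an adaptor that restrains JAK2 (-0.22, edgeR adjusted p = 0.00960), and the phosphatase PTPN2 (-0.18, edgeR adjusted p = 0.0113). SH2B3 was lost without shMSLN replicate 3 and PTPN2 without shMSLN replicate 1 or 3. Of the 5 ubiquitin ligase partners of the SOCS box, CUL5 was called lower (-0.12, edgeR adjusted p = 0.0304) and RBX1 higher with overlapping groups (0.20, edgeR adjusted p = 0.0418). CUL5 was lost without any library other than shNC replicate 1, and RBX1 without shNC replicate 2 or 3 or shMSLN replicate 2 or 3. ADAM10 and ADAM17, the proteases that release soluble IL6R, had log2 fold changes of 0.0084 and -0.072, and neither passed in edgeR, DESeq2 or limma-voom, nor at an unadjusted p below 0.05 in edgeR (0 of 2).

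A list of 27 genes widely described as targets of interleukin-6 and STAT3 had 17 tested members, with a median log2 fold change of -0.16. Of these 17, 9 were called lower and 3 higher, against 18.0% lower and 16.6% higher over all tested genes. The list was chosen with earlier results of these data known. BCL3, an atypical IκB protein, stood at 34.8, 34.6 and 32.8 CPM in shNC and at 16.8, 17.0 and 16.3 CPM in shMSLN (log2 fold change -1.03, edgeR adjusted p = 1.61e-08). CEBPB, a transcription factor of the acute-phase response, had a log2 fold change of -0.60 (edgeR adjusted p = 1.63e-07). The cyclin gene CCND1 (-0.39, edgeR adjusted p = 1.38e-06) and the adhesion molecule ICAM1 (-0.69, edgeR adjusted p = 4.46e-05) were also lower. TIMP1, an inhibitor of matrix metalloproteinases (0.41, edgeR adjusted p = 1.10e-05), and the growth factor VEGFA (0.48, edgeR adjusted p = 4.97e-05) were higher. Many genes of this list are also known to respond to NF-κB or to ERK signalling. These are RNA levels, and STAT3 phosphorylation was not measured in these libraries. By Western blot, the study reported that the JAK/STAT3 pathway was unaffected by MSLN knockdown in HM3 cells.

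JAK-coupled receptors of other cytokines were taken as a last list. Of 29 listed, 25 were tested, with 10 called lower, 3 called higher, 12 not called and a median log2 fold change of -0.11, against 18.0% lower and 16.6% higher over all tested genes. On log2(TPM + 1) the calls were 6 lower and 4 higher. The interleukin-7 receptor chain IL7R stood at 21.3, 16.5 and 21.4 CPM in shNC and at 9.57, 10.0 and 8.30 CPM in shMSLN (log2 fold change -1.08, edgeR adjusted p = 3.13e-06). IL15RA (-0.65, edgeR adjusted p = 1.08e-05) and both chains of the interferon-γ receptor, IFNGR1 (-0.45, edgeR adjusted p = 3.12e-05) and IFNGR2 (-0.43, edgeR adjusted p = 2.89e-06), were lower. IL4R (-0.32, edgeR adjusted p = 0.000972) and IL20RB (-0.22, edgeR adjusted p = 0.00255) were also lower, and with shMSLN replicate 1 alone the log2 fold change of IL4R was -0.17. IL4R also belongs to the list of interleukin-6 and STAT3 targets above, so it is counted in both lists.

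Of the 6 called genes among the 10, IL6ST, OSMR and LIFR passed in all 20 alternatives to the fit. IL6R and LIF passed in all but 1, in which shMSLN replicate 1 alone was set against shNC. In that fit the spread comes from the shNC samples only, and the log2 fold changes were 0.47 for IL6R (edgeR adjusted p = 0.112) and -0.26 for LIF (edgeR adjusted p = 0.201). That comparison was made because shMSLN replicates 2 and 3 differed from the other libraries in how their counts were written. Among values over 100 counts 47.7% were whole numbers in each of them, against 3.36% to 7.02% in the others, and the part of this in the results was not tested.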

How the data were processed

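RNA was extracted and poly(A)-selected from 6 HCC1806/HM3 samples, 3 shNC and 3 shMSLN, and sequenced as DNA nanoballs. Per the file headers, the authors deposited estimated counts, FPKM and TPM per gene and sample in 1 table of 17860 genes. The submitters' processing notes name GRCh38.p13. The aligner, quantifier and strand setting were not given in the sources used here. In the shMSLN columns 695 to 1103 values were marked missing, and the 1287 genes affected in any sample were left out, which kept 16573 genes.

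The estimated counts were rounded and filtered with filterByExpr (14552 genes tested), scaled by TMM, and tested with edgeR 4.0.16 quasi-likelihood fits in R 4.3.3, with Benjamini-Hochberg adjustment over all tested genes and a threshold of 0.05. Standard errors and 95% intervals were taken from the log2 fold change and its F statistic. CPM was computed with the TMM library sizes. Single genes were also compared by exact permutation. The alternatives were 17 planned ones, with DESeq2 1.42.0, limma 3.58.1 on counts and on log2(TPM + 1), other scalings and filters, a replicate block and leaving out each sample, and 3 chosen after seeing the data (library-size scaling alone, and removal of a trend on transcript length with and without the block). The fits were tested on simulated data.

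The members and gene lists were chosen with earlier results of these data known. Genes named beside the 10 were MSLN, the missing partners of the members, JAK1, JAK2, TYK2 and STAT3, and at most 6 genes per list by smallest adjusted p below 0.05. A few others that make up small counts, or that overlap or neighbour a member, were named after their values were seen. Gene positions are from GENCODE (GRCh38). Promoters are from RefSeq (GRCh38.p14), with windows for 8 of the 10 genes and no entry for LIF and CLCF1. A planned search of protein sequences was not run, and 1 planned gene of the ligand list is not reported here. Intervals at low counts cover the spread between these samples only.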

Additional observations from a re-analysis of the deposited data

How the results depend on the processing

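IL6ST, OSMR and LIFR kept their direction and call in all 20 alternatives, with log2 fold changes of -0.47 to -0.28, -0.49 to -0.26 and -0.76 to -0.41. With shMSLN replicate 1 alone, a fit with 1 sample in that group in which the spread comes from the shNC samples only, 1797 genes were called in place of 5032, and the 10 genes gave 3 lower and 0 higher. In that fit the ligands gave 0 lower, the receptors 1 higher, the other inhibitors 0 lower, the ligase partners 0 lower and 0 higher, the JAK and STAT genes 0 lower, the STAT3 targets 5 lower, and the other cytokine receptors 4 lower and 1 higher. On log2(TPM + 1) the median over the 10 genes was -0.22, with 1 ligand, 0 other inhibitors, 0 ligase partners, 1 JAK or STAT gene and 6 other cytokine receptors lower, and 2 ligase partners higher. Upper-quartile and library-size scaling each gave 1 ligand and 0 ligase partners lower and 2 ligase partners higher, and moved the median of all genes to 0.031 and 0.032. DESeq2 gave 1 ligand lower, 2 receptors higher, 0 ligase partners lower and 0 higher, and a filter of at least 1 count gave 1 ligand lower. Removing the length trend, with or without the block, gave 0 ligase partners lower. Over all tested genes, the calls numbered 4338 on log2(TPM + 1), 3863 in DESeq2 and 4930 with the filter of at least 1 count. They numbered 5060 with upper-quartile scaling and 5040 with library-size scaling. With the length trend removed they numbered 5290, and 5941 with the block as well.

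Leaving out 1 library at a time gave 4 to 5 of the 10 genes lower, with the loss in CLCF1 alone, and 1 higher. It gave 1 to 2 ligands, 0 to 1 SOCS genes, 0 to 3 other inhibitors, 0 to 1 ligase partners and 1 to 5 JAK and STAT genes lower, and 0 to 1 ligase partners higher. Genes near 0 changed sign, over -0.041 to 0.21 for SOCS1, -0.090 to 0.24 for CISH, -0.11 to 0.12 for CNTF and -0.034 to 0.032 for JAK1. SOCS1 was -0.0085 without shNC replicate 3 and -0.041 without shMSLN replicate 1, and CISH was -0.090 without shMSLN replicate 3 and -0.24 with shMSLN replicate 1 alone. CNTF was 0.0032, 0.0040 and 0.0082 under upper-quartile scaling, library-size scaling and TPM, and 0.12 and 0.069 without shNC replicate 3 and shMSLN replicate 1. JAK1 was 0.023, 0.023 and 0.032 under the same settings, 0.0061 with shMSLN replicate 1 alone, 0.032 and 0.015 without shNC replicate 2 and shMSLN replicate 2, and 0.018 with the length trend removed. The cause of these changes was not tested.

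Same-numbered samples deviated together with correlations of 0.165, 0.0764 and 0.0718, and every sample correlated best with its own number. Pairs with different numbers had correlations of -0.105 to 0.0355. Whether same-numbered samples share a batch or a culture was not given and was not tested. A replicate block called 5789 genes, left the 10 genes at 5 lower and 1 higher, and gave 6 JAK and STAT genes lower, STAT3 among them. At 12 to 27 estimated counts, SOCS1 and CISH had wide intervals, and changes within them are not excluded.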

Other observations

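LIFR and OSMR lie 238 kb apart on chromosome 5, and IL6ST lies on the same chromosome at a distance. Of 16 tested genes within 2 Mb of LIFR or OSMR, 4 were called lower and 3 higher in edgeR, against 18.0% and 16.6% of all tested genes, with a median log2 fold change of 0.026. FYB1, an adaptor protein, had a log2 fold change of -0.78 (edgeR adjusted p = 1.13e-06) and PTGER4, a prostaglandin E2 receptor, of 0.50 (edgeR adjusted p = 1.28e-05). Both were chosen after their values were seen.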
